A study of Talinum fruticosum with 24 samples.

Results

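The 4 measured genes of the beta carbonic anhydrase family were followed in mature Talinum triangulare leaves (organism label Talinum fruticosum). Talinum is a facultative CAM plant, able to change from C3 photosynthesis to crassulacean acid metabolism (CAM) under drought and back. The family was defined by its Arabidopsis thaliana identifiers, CA1 (AT3G01500), CA2 (AT5G14740), CA3 (AT1G23730), CA4 (AT1G70410), CA5 (AT4G33580) and CA6 (AT1G58180). Of these 6, 4 (CA1, CA3, CA5 and CA6) were among the 22079 identifiers of the count table and all 4 were tested, while CA2 and CA4 were not analysed here. All plants had 28 d of full watering followed by 12 d of drought. The CAM groups were harvested at that point, and the reC3 groups after a further 2 d of re-watering, when the labels give the mode as back in C3. Harvests of each mode fell at zeitgeber times of 6 h (MD, midday), 12 h (ED, dusk), 18 h (MN, midnight) and 24 h (EN, dawn), with 3 biological replicates in each of the 8 groups. No group held leaves that had never been droughted, so a higher level in CAM cannot be told apart from a fall on re-watering. Midday and midnight libraries are marked in the labels as re-analyzed samples of an older series, and those of dusk and dawn carry no such mark, so library set and these times cannot be told apart. Tests between groups were therefore kept within a set: CAM against reC3 at 1 time, midnight against midday, and dawn against dusk. The average over the 4 times and the interaction of mode with time use differences taken within 1 time, but draw on both sets. The labels do not say whether replicates came from separate plants, and p-values measure the spread between these samples.

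Carbonic anhydrases interconvert CO2 and bicarbonate. In CAM, phosphoenolpyruvate (PEP) carboxylase fixes bicarbonate at night, so the cytosol must turn incoming CO2 into bicarbonate, while Rubisco in the chloroplast uses CO2 itself by day. In Arabidopsis, CA1 is an abundant enzyme of the chloroplast stroma and acts with CA4 in the closing of stomata at high CO2, CA3 is placed in the cytosol, CA5 in the chloroplast and CA6 in the mitochondrion. These locations are those of the Arabidopsis proteins, and the location of the Talinum proteins was not measured.

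Reads of Talinum transcripts were assigned by the authors to Arabidopsis identifiers, and the 4 genes fell into 2 pairs whose counts moved together. CA1 held 3438 to 225148 counts per library and CA3 held 524 to 31995. Their count ratio, which is not corrected for transcript length, ranged from 4.36 to 7.66 over the 24 libraries with a median of 6.72, while the counts of CA1 themselves differed far more. CA5 held 198 to 1132 counts and CA6 held 20 to 162, at a ratio of 5.50 to 12.4 with a median of 8.61. Across the 24 libraries, log2 CPM (library-size-scaled counts, with TMM factors) of CA1 and CA3 correlated with Pearson's r = 0.989 and that of CA5 and CA6 with r = 0.964, while CA1 and CA5 correlated with r = 0.156. These values describe libraries that share groups, times and depth. In the table's annotation the closest Arabidopsis relative of CA5 is CA6, and the reverse, whereas those of CA1 and CA3 are CA2 and CA4. How reads were shared within a pair was not tested, so the members of a pair are uncertain as separate genes.

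**Figure D1:**
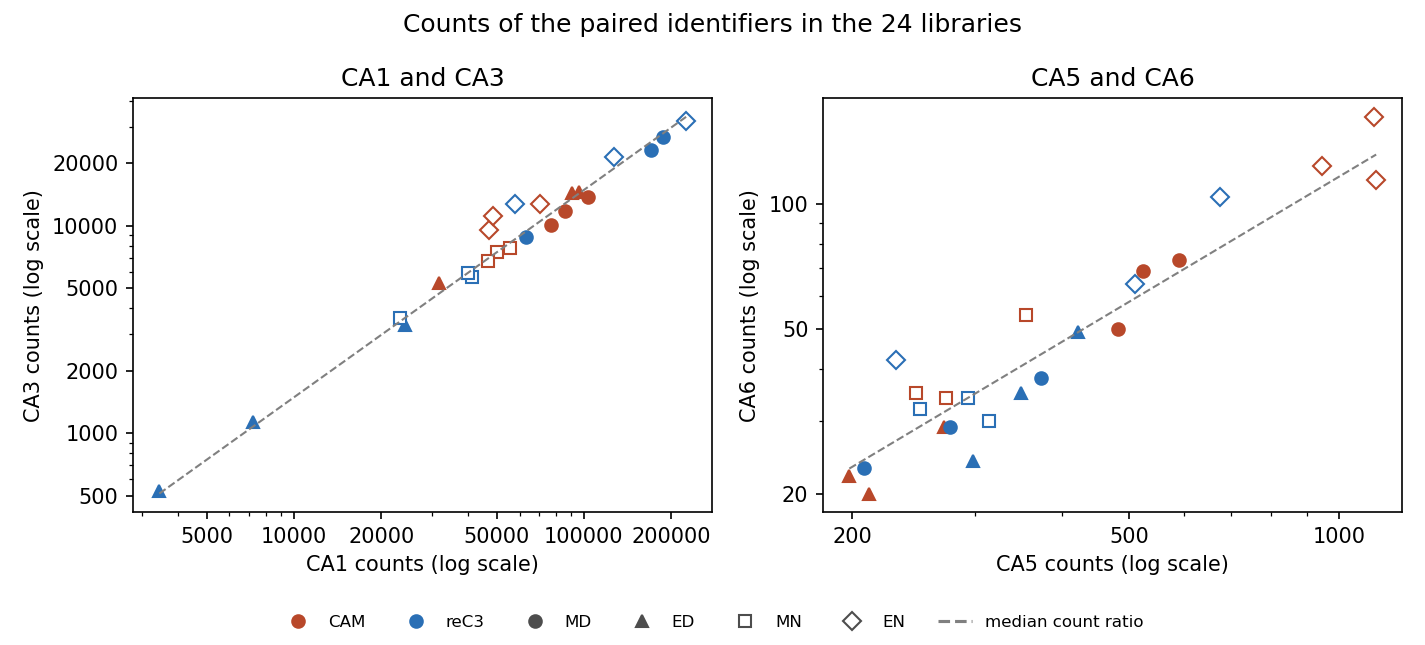
Counts of CA1 against CA3 (left) and of CA5 against CA6 (right) in the 24 libraries, on log axes, coloured by mode and shaped by time. The points of each pair lie along the dashed line of the median count ratio (6.72 and 8.61), and the ratio of CA1 to CA3 is lowest on average in CAM at EN.

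The ratio within the first pair was not the same in every group. CA1 over CA3 was 7.46 ± 0.190 (SD, n = 3) in CAM at MD and 4.95 ± 0.595 in CAM at EN, and these groups did not overlap (7.28 to 7.66 against 4.36 to 5.55). In reC3 it was 7.13 ± 0.194 at MD and 5.83 ± 1.25 at EN, where the libraries ran from 4.55 to 7.04. MD and EN also belong to different sets of libraries.

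CA1, placed in the chloroplast in Arabidopsis, was higher in CAM than in reC3 at dusk and lower at dawn. At ED its level was 12110, 10819 and 4241 CPM in CAM replicates 1, 2 and 3 and 2918, 835 and 562 CPM in the reC3 replicates. All CAM libraries lay above all reC3 libraries, although CAM replicate 3 and reC3 replicate 1 approached each other. The log2 fold change was 2.65 ± 0.605 (SE; adjusted p = 0.00123, edgeR quasi-likelihood test with Benjamini-Hochberg adjustment over 14065 genes), and it was 3.70 without reC3 ED replicate 1. At EN the level was 7035, 10007 and 9215 CPM in CAM and 42330, 10237 and 21102 CPM in reC3. The groups did not overlap, but CAM replicate 2 and reC3 replicate 2 lay side by side. The log2 fold change was -1.49 ± 0.581 (adjusted p = 0.0361, edgeR). This call was lost without reC3 EN replicate 1 (-0.84, adjusted p = 0.256), without CAM EN replicate 1, 2 or 3 (adjusted p = 0.108, 0.0601 and 0.0759), with limma-voom (adjusted p = 0.0917), and when libraries were scaled by their totals without TMM (adjusted p = 0.0714).

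At MD and MN the modes overlapped for CA1. At MD the CAM libraries stood close together at 15005, 16130 and 14193 CPM, while those of reC3 spread over a 4.21-fold range, with 33861, 25526 and 8037 CPM. The log2 fold change was -0.57 ± 0.570 (adjusted p = 0.435, edgeR). At MN the levels were 7407, 6231 and 4642 CPM in CAM and 5482, 2889 and 5117 CPM in reC3, with a log2 fold change of 0.44 ± 0.570 (adjusted p = 0.575, edgeR). CA1 took between 0.0798% and 2.57% of all counts of a library, the lowest in reC3 ED replicate 3 and the highest in reC3 EN replicate 1.

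**Figure D2:**
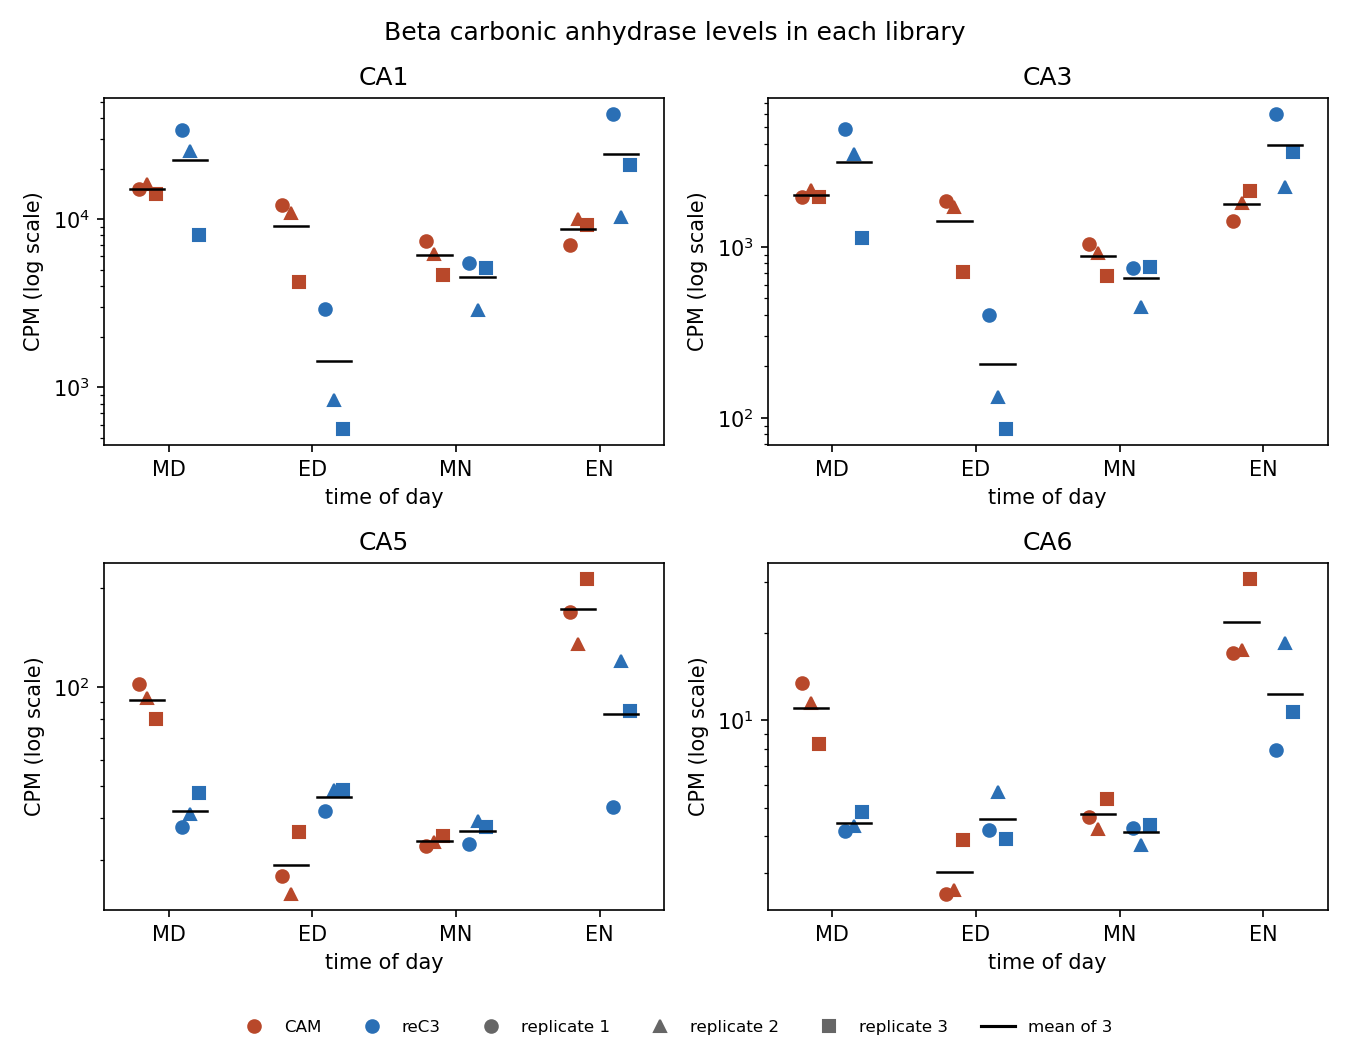
Level of CA1, CA3, CA5 and CA6 in CPM (log scale) in each of the 24 libraries at MD, ED, MN and EN, coloured by mode, with the mean of 3 replicates as a black line. CA1 and CA3 fall lowest in reC3 at ED, whereas CA5 and CA6 are highest in CAM at EN.

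CA3, placed in the cytosol in Arabidopsis, differed between modes in the same direction as CA1 at each of the 4 times. The members of this pair are uncertain as separate genes. At ED the CAM libraries held 1846, 1705 and 709 CPM and those of reC3 398, 132 and 85.7 CPM, with no overlap. The log2 fold change was 2.79 ± 0.547 (adjusted p = 0.000326, edgeR), and 3.71 without reC3 ED replicate 1. At EN they held 1424, 1803 and 2114 CPM in CAM, against 6015, 2252 and 3571 CPM. These groups did not overlap either, and the difference was -1.15 ± 0.517 with an adjusted p of 0.0675 (edgeR). It passed with DESeq2 (adjusted p = 0.0438), in a fit of these 6 libraries (adjusted p = 0.0425) and in 4 of 24 fits that left out 1 library. CA3 measured -0.64 ± 0.513 at MD and 0.43 ± 0.512 at MN, with overlapping libraries at both times.

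CA5, the other enzyme of the chloroplast in Arabidopsis, was higher in CAM at MD and EN and lower at ED. At MD its level was 102, 92.4 and 79.8 CPM in CAM and 37.7, 41.3 and 47.6 CPM in reC3, so every CAM library lay well above every reC3 library. The log2 fold change was 1.11 ± 0.243 (adjusted p = 0.000806, edgeR). At EN the values were 169, 135 and 213 CPM in CAM against 43.4, 120 and 84.7 CPM in reC3. The modes did not overlap, with reC3 replicate 2 closest to CAM, and the log2 fold change was 1.06 ± 0.239 (adjusted p = 0.000820, edgeR).

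At dusk CA5 was lower in CAM, with 26.7, 23.5 and 36.4 CPM against 42.1, 48.8 and 48.7 CPM in reC3. The groups did not overlap, and the log2 fold change was -0.69 ± 0.245 (adjusted p = 0.0255, edgeR). This call was lost without CAM ED replicate 1 or 2 or without reC3 ED replicate 2 or 3 (adjusted p = 0.0659 to 0.116). At MN the modes overlapped at 32.9, 33.9 and 35.3 CPM in CAM and 33.3, 39.1 and 37.6 CPM in reC3, a difference of -0.11 ± 0.243 on the log2 scale (adjusted p = 0.755, edgeR).

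CA6, placed in the mitochondrion in Arabidopsis, had the fewest counts of the 4. It was higher in CAM at MD, with 13.5, 11.4 and 8.28 CPM against 4.17, 4.34 and 4.85 CPM in reC3 and no overlap, a difference of 1.30 ± 0.295 on the log2 scale (adjusted p = 0.00113, edgeR). At EN the values were 17.0, 17.5 and 30.7 CPM in CAM against 7.90, 18.4 and 10.7 CPM in reC3, so the groups overlapped through reC3 replicate 2. The log2 fold change of 0.81 ± 0.262 (adjusted p = 0.0128, edgeR) was not past the threshold without CAM EN replicate 3 (0.49), reC3 EN replicate 1 (0.57) or reC3 EN replicate 3 (0.71), nor in a fit of these 6 libraries alone. The difference was -0.63 ± 0.318 at ED (adjusted p = 0.114) and 0.21 ± 0.303 at MN (adjusted p = 0.617).

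**Figure D3:**
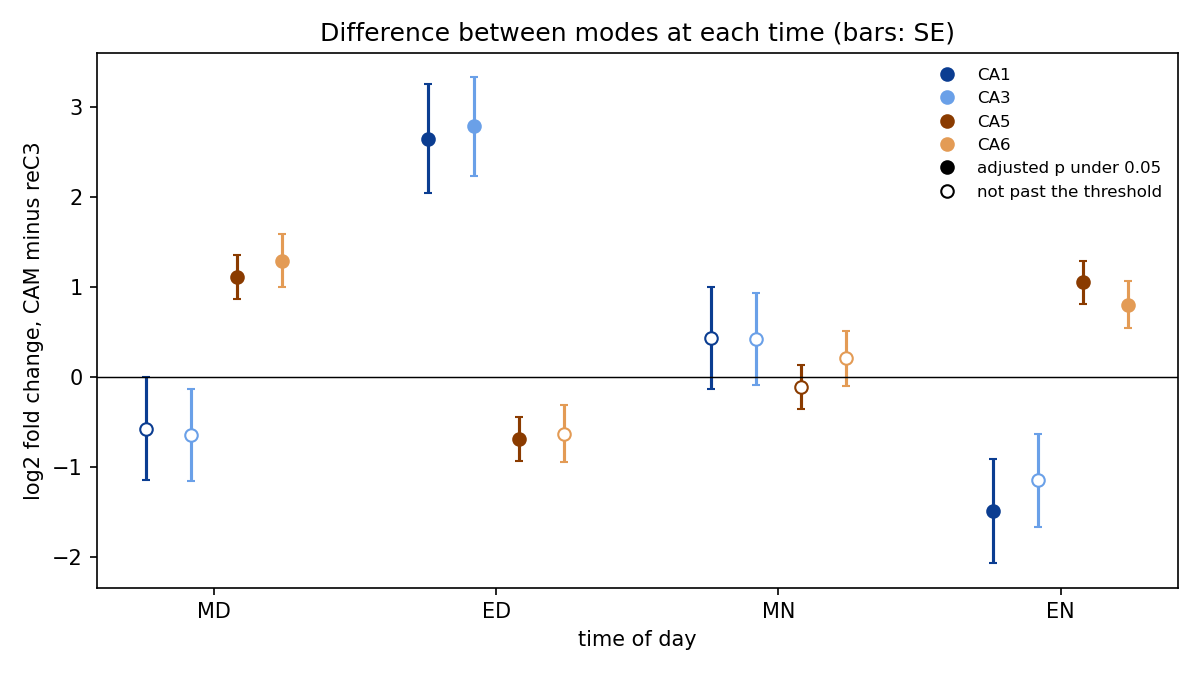
Log2 fold change of CAM minus reC3 for CA1, CA3, CA5 and CA6 at each time, with SE bars; filled points had an adjusted p under 0.05. At ED CA1 and CA3 lie above 0 and CA5 below it, and at EN CA1 lies below 0 and CA5 and CA6 above it.

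The number of members that passed at each time is given beside the share of all genes, and 4 members are too few for a comparison. At MD 2 of 4 passed, both higher in CAM. Of all genes tested, 44% passed there, and 22.7% passed as higher. At ED 3 of 4 passed, CA1 and CA3 higher and CA5 lower, against 45.4% of all genes, 21.5% higher and 23.9% lower. At EN 3 of 4 passed, CA5 and CA6 higher and CA1 lower, against 53.3% of all genes, 24.1% higher and 29.2% lower. The share of called genes that were higher depends on scaling, at 47.4% at ED and 45.2% at EN with TMM and 30.1% and 62.4% with library totals alone. At MN none passed with edgeR (38.6% of all genes), none had an unadjusted p under 0.05, and none passed with DESeq2 or limma-voom. The difference between modes varied with time for 4 of 4 (adjusted p = 0.000346 to 0.00540 for the interaction, edgeR), against 46.8% of all genes. This test compares times of both library sets. With MD and MN libraries alone it was not past the threshold for CA1 and CA3 (adjusted p = 0.229 and 0.177, edgeR).

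Averaged over the 4 times, 2 of 4 were higher in CAM, where 64.8% of all genes passed, 32.3% as higher and 32.5% as lower. CA5 averaged 0.34 ± 0.121 (adjusted p = 0.0168, edgeR) and CA6 0.42 ± 0.148 (adjusted p = 0.0164). The call of CA5 was lost under library totals alone (0.32, adjusted p = 0.0731). Both calls rested on MD and EN. Without EN they were at 0.10 and 0.29 (adjusted p = 0.295 and 0.0585), and without MD at 0.11 and 0.15 (adjusted p = 0.543 and 0.473). CA1 averaged 0.26 ± 0.284 and CA3 0.36 ± 0.256, neither past the threshold, and without EN both passed at 0.84 and 0.86 (adjusted p = 0.0317 and 0.0248). Without MD, CA3 also passed at 0.71 (adjusted p = 0.0401), as it did without reC3 ED replicate 1 at 0.59 (adjusted p = 0.0273).

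The course from dusk to dawn differed between the modes for 4 of 4 members (36.2% of all genes), in opposite directions for the pairs. In reC3, CA1 averaged 1438 ± 1289 CPM at ED and 24556 ± 16323 CPM at EN (SD, n = 3), a 17.1-fold ratio of the means and a log2 fold change of 4.09 ± 0.645 (adjusted p = 1.40e-05, edgeR). Every EN library lay above every ED library. In CAM it averaged 9056 ± 4220 and 8752 ± 1539 CPM, with overlapping libraries and a log2 fold change of -0.05 ± 0.568. The difference between these courses was -4.14 ± 0.836 (adjusted p = 0.000682, edgeR), and it ran from -5.19 to -3.50 when any 1 library was left out. CA3 gave 4.26 ± 0.584 in reC3, 0.33 ± 0.511 in CAM and -3.94 ± 0.749 for the difference (adjusted p = 0.000427).

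CA5 and CA6 rose more from dusk to dawn in CAM than in reC3. CA5 averaged 28.9 ± 6.69 CPM at ED and 172 ± 39.2 CPM at EN in CAM, a log2 fold change of 2.58 ± 0.252 (adjusted p = 1.02e-08, edgeR) with no overlap. In reC3 it averaged 46.6 ± 3.86 and 82.6 ± 38.2 CPM, with libraries that overlapped. The rise of 0.83 ± 0.241 in reC3 (adjusted p = 0.00550, edgeR) was -0.092 under library totals alone, a scaling that moved the median of all genes to -0.97, so CA5 was 0.88 above that median. It was also not past the threshold without reC3 EN replicate 2 (0.47, adjusted p = 0.0828) or in a fit of those 6 libraries alone (adjusted p = 0.0754). The difference between the courses was 1.75 ± 0.342 for CA5 (adjusted p = 0.000475) and 1.43 ± 0.412 for CA6 (adjusted p = 0.00934). CA6 rose by 2.84 ± 0.294 in CAM and by 1.41 ± 0.287 in reC3, and the latter was 0.47 under library totals alone (adjusted p = 0.193). From ED to EN, 2 of 4 members passed in CAM (63.7% of all genes) and 4 of 4 in reC3 (57.9%).

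From midday to midnight the fall of CA1 and CA3 passed in reC3, and that of CA5 and CA6 passed in CAM. CA1 and CA3 were also lower at MN than at MD in CAM, without passing. These calls do not by themselves show a difference between modes, which is given below for each member. In reC3, CA1 went from 22475 ± 13180 CPM at MD to 4496 ± 1404 CPM at MN, a log2 fold change of -2.32 ± 0.597 (adjusted p = 0.00343, edgeR), and CA3 changed by -2.27 ± 0.535 (adjusted p = 0.00178). CA5 and CA6 measured -0.20 ± 0.244 and -0.12 ± 0.313 there, with overlapping libraries. In CAM, CA5 went from 91.5 ± 11.2 to 34.0 ± 1.18 CPM (-1.42 ± 0.244, adjusted p = 4.37e-05, edgeR) and CA6 changed by -1.20 ± 0.285 (adjusted p = 0.00120).

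CA1 in CAM went from 15109 ± 973 CPM at MD to 6093 ± 1388 CPM at MN without overlap. Its change of -1.31 ± 0.578 was not past the threshold in the fit that shares the spread of all 8 groups (adjusted p = 0.0632, edgeR). It passed in a fit of those 6 libraries alone (adjusted p = 0.000702) and without any 1 of 5 reC3 libraries (adjusted p = 0.0302 to 0.0480). CA3 changed by -1.20 ± 0.518 (adjusted p = 0.0585), and passed in the fit of 6 libraries (adjusted p = 0.000231). From MD to MN, 2 of 4 members passed in CAM (52% of all genes) and 2 of 4 in reC3 (43.4%). The difference between modes in this course passed for 1 of 4, CA5, at -1.22 ± 0.343 (adjusted p = 0.0136, edgeR; 22.3% of all genes). It was -1.09 ± 0.424 for CA6 (adjusted p = 0.0688), 1.01 ± 0.806 for CA1 (adjusted p = 0.396) and 1.07 ± 0.724 for CA3 (adjusted p = 0.308).

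Ordered over the 8 groups, the mean level of CA1 fell from reC3 EN through reC3 MD, CAM MD, CAM ED, CAM EN, CAM MN and reC3 MN to reC3 ED. Of these neighbours, CAM MD and CAM ED were separate and all others overlapped in their libraries. For CA3 the order was the same except that CAM EN stood above CAM ED, and reC3 MN and reC3 ED alone were separate. CA5 fell from CAM EN through CAM MD, reC3 EN, reC3 ED, reC3 MD, reC3 MN and CAM MN to CAM ED, and CAM EN stood apart from CAM MD while the other neighbours overlapped. CA6 was also highest in CAM EN and lowest in CAM ED, with a break between CAM MD and CAM MN only. The breaks of CA1, CA3 and CA5 lie between groups of different library sets, so set and time cannot be told apart there. The share of all genes that separate between the same groups is not given here.

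For CA1 the libraries of a group spread more widely in reC3 than in CAM at all 4 times. At EN the highest reC3 library held 4.14 times the level of the lowest, against 1.42 times in CAM, and at ED 5.19 times against 2.86 times. Over all genes, replicates correlated with their partners at 0.941 to 0.966 in reC3 and 0.978 to 0.980 in CAM at EN. At MD these values were 0.962 to 0.976 and 0.983 to 0.985. They overlapped at ED and were higher in reC3 at MN. The wider spread at MD and EN was thus not particular to CA1. In all 4 reC3 groups, replicate 1 was the library highest in CA1 and lowest in CA5, and the highest library in CA1 was the lowest in CA5 in 2 of 4 CAM groups. For CA6 this held in 3 of 8 groups. Over the 24 libraries, deviations from the group means correlated at r = -0.68 for CA1 and CA5. The PEP carboxylase PPC1 had r = -0.33 with CA1 and 0.65 with CA5. At EN in reC3, the PEP carboxylase PPC1 (AT1G53310) followed CA5, with 1929, 9382 and 4979 CPM in replicates 1, 2 and 3. The small Rubisco subunit RBCS1A (AT1G67090) followed CA1 there, with 111076, 39970 and 49773 CPM. In the other reC3 groups PPC1 ran from 407 to 732 CPM, and in CAM at EN from 7798 to 10030 CPM. For PPC1, reC3 EN replicate 2 thus lay within the range of CAM at EN. How this bears on the differences between modes at EN was not tested. The TMM factor was 0.608 in reC3 EN replicate 1, the lowest of all libraries, and 1.33 to 1.43 in the reC3 ED libraries, the highest. Without this scaling the CA1 differences were 2.44 at ED and -1.12 at EN.

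Of 8 alpha carbonic anhydrases 5 were in the table and 2 passed the filter on low counts. ACA1 (AT3G52720), an alpha carbonic anhydrase, was lower in CAM at all 4 times. Its midday level was 1.64 ± 1.09 CPM in CAM against 76.7 ± 8.15 CPM in reC3, a difference of -5.53 ± 0.290 on the log2 scale (adjusted p = 1.67e-11, edgeR). At EN the levels were 1.19 ± 0.238 and 67.1 ± 8.70 CPM, a difference of -5.78 ± 0.300. At ED it had 3 counts in CAM and 74 in reC3, a ratio of 25.4 (exact 95% counting interval 8.37 to 126, counting error only). ACA8 passed at none of the 4 times (-0.73 to 0.52). The gamma carbonic anhydrases, subunits of complex I in plant mitochondria, were lower in CAM in the average in 4 of 4 tested members, by small amounts from -0.39 (GAMMA CAL2) to -0.18 (GAMMA CA2), with adjusted p = 0.000139 to 0.0109 (edgeR). In that test 32.5% of all genes passed as lower. At MD, ED, MN and EN, 1, 2, 1 and 3 of the 4 passed, all as lower, where 44%, 45.4%, 38.6% and 53.3% of all genes passed in either direction. Under library totals alone, all 4 passed at ED (adjusted p = 0.000602 to 0.00896, edgeR). None passed at EN (adjusted p = 0.321 to 0.872) or at MD with that scaling. It moved the median of all genes to -0.21 at ED and 0.21 at EN. The call of GAMMA CA2 in the average was lost under library totals alone (adjusted p = 0.0528). No interaction with time passed for these 2 alpha and 4 gamma genes, which does not show that their difference was constant.

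The enzymes that use bicarbonate and CO2 give a scale for these changes. PPC1 and PPC2 (AT2G42600) were higher in CAM by 3.98 to 4.66 at MD, ED and MN, while CA1 and CA3 were at -0.64 to 0.44 at MD and MN and at 2.65 and 2.79 at ED. At EN both PEP carboxylases were at 0.69 and 0.76 (adjusted p = 0.0961 and 0.0665, edgeR), which passed under library totals alone at 0.92 and 0.98 (adjusted p = 0.0367 and 0.0242). In reC3, PPC1 averaged 5430 ± 3747 CPM at EN (SD, n = 3), against 480 to 636 CPM at the other times. PPC2 averaged 3161 ± 2161 CPM at EN in reC3, against 294 to 373 CPM at the other times. PPC4 passed at none of the 4 times. Rubisco activase, RCA (AT2G39730), was higher in CAM at ED by 2.09 ± 0.319 and lower at MD by -1.21 ± 0.310, and RBCS1A was lower at EN by -1.45 ± 0.399 (adjusted p = 0.00403). From ED to EN in reC3, RBCS1A rose by 2.11 ± 0.407, RCA by 5.21 ± 0.366 and PPC1 by 3.12 ± 0.373.

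**Figure D4:**
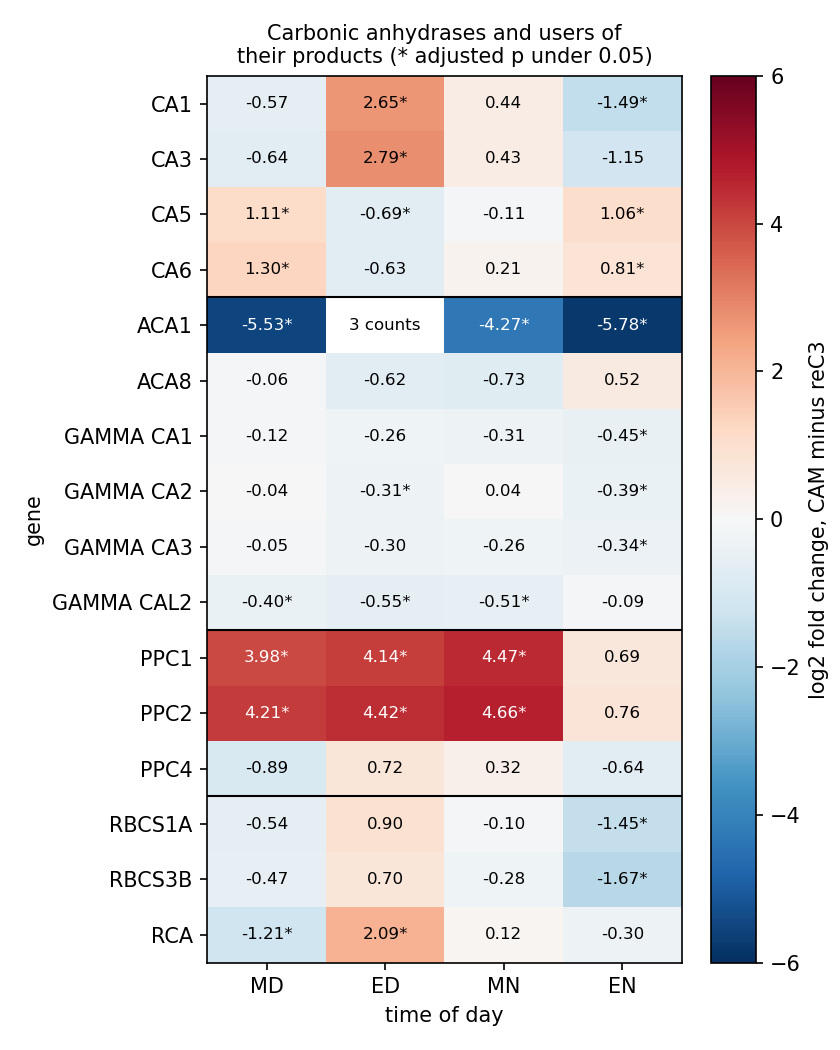
Log2 fold change of CAM minus reC3 at each time for the carbonic anhydrases tested, the PEP carboxylases, the Rubisco subunits and Rubisco activase; red is higher in CAM and an asterisk marks an adjusted p under 0.05. ACA1 is lower in CAM throughout (3 counts in CAM at ED, no fitted value shown), and the values of CA1, CA3 and RCA are at their highest at ED.

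Of 5 genes of CO2 passage and the stomatal CO2 response that were measured, 1 was higher in CAM in the average and 3 were lower, in a test that 64.8% of all genes passed. The kinase OST1, which closes stomata, was higher by 0.63 ± 0.0786 (adjusted p = 3.30e-07, edgeR). It was higher at MN (1.42) and EN (1.02) and did not pass at MD (-0.18) or ED (0.28). The kinase HT1, which keeps stomata open, was lower by -0.79 ± 0.0948, the aquaporin PIP1;2 by -0.36 ± 0.0842 and RHC1, a transporter of the CO2 response in guard cells, by -1.27 ± 0.237. Of the 4 times, PIP1;2 passed at ED alone (-0.95). RHC1 passed at MD (-2.95) and MN (-1.13) and did not pass at ED (-0.68) or EN (-0.32). Its level was low, with group means of 0.37 to 4.53 CPM and 7 counts in CAM at MD. The anion channel SLAC1 measured 0.26 ± 0.120 in the average (adjusted p = 0.0581) and was higher in CAM at MD (0.82, adjusted p = 0.00608).

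The genes most like each member over the 24 libraries were taken from all genes with a mean of at least 10 CPM, by Pearson's r of log2 CPM. For CA1 they were CA3 (0.989), a phosphate translocator annotated as AT5G46110 (0.947) and the ketol-acid reductoisomerase AT3G58610 (0.942). For CA3 they were CA1, the photosystem II 5 kD protein AT1G51400 (0.942) and AT3G58610 (0.941). For CA5 they were the glycerol-3-phosphate acyltransferase AT5G60620 (0.937), the complex I 24 kDa subunit AT4G02580 (0.926) and a mitochondrial carrier, AT5G01340 (0.922). For CA6 they were CA5 (0.964), AT4G02580 (0.944) and AT5G60620 (0.930).

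Libraries held 4310225 to 8756145 counts, and replicates correlated with their partners at a mean of 0.941 to 0.986 across genes, lowest in reC3 EN replicate 1. The labelled tissue showed the 5 mesophyll markers in every group. Of the 4 root markers, CASP1 and CASP2 had no count, MYB36 had 2 to 21 counts in a group, and SCR stood at 6.25 to 19.8 CPM in the group means. The summed level of the mesophyll markers, among them RBCS1A and RCA, was 32096 to 47924 CPM in CAM against 14762 to 27532 CPM in reC3 at ED, and 68613 to 87877 CPM against 110905 to 191248 CPM at EN. Its members did not all follow the sum: at ED RCA was higher in CAM and LHCB2.4 lower (-1.81, adjusted p = 0.0253, edgeR), and at EN 4 of 5 were lower. The 6 guard cell markers in the table summed to 33.8 to 40.8 CPM in CAM and 48.0 to 59.5 CPM in reC3 at ED, and to 198 to 226 against 146 to 148 CPM at EN. At EN the potassium channel GORK was higher in CAM (153 against 59.7 CPM) and 3 of the 6 were lower, MYB60, KAT2 and HT1. The 4 epidermis markers in the table summed to 278 to 310 CPM in CAM and 383 to 439 CPM in reC3 at ED, and to 472 to 506 against 792 to 870 CPM at EN. At ED 2 of the 4 passed, both lower in CAM. At EN 2 passed as lower and ANL2 as higher (118 against 98.3 CPM). The 6 vascular markers summed to 224 to 259 against 641 to 1240 CPM at ED, and to 386 to 637 against 591 to 666 CPM at EN, where the sums overlapped. At both times 5 of the 6 passed as lower in CAM and 1, SWEET11, as higher (438 against 94.2 CPM at EN). Of all genes tested, 21.5% passed as higher and 23.9% as lower at ED, and 24.1% and 29.2% at EN. The part of cell composition in the results was not tested, and in whole leaves fewer cells of a type and less RNA per cell cannot be told apart.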

How the data were processed

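Polyadenylated RNA of leaves was sequenced as single-end 150 bp reads (TruSeq v2, unstranded), per the labels' protocols. Raw read counts per Arabidopsis identifier were deposited by the authors without scaling, per the file headers; CASAVA 1.8.2 and TAIR10 are named in the submitters' processing notes, with the aligner and counting tool not given in the sources used here. A further 40 columns of values were not used. Libraries held 4310225 to 8756145 counts. In R 4.3.3 the edgeR function filterByExpr (version 4.0.16) retained 14065 of 22079 genes, TMM factors scaled the libraries, and a robust quasi-likelihood fit with a mean per group was made on all 24 libraries (common biological coefficient of variation 0.196). P-values were adjusted over all genes tested by the Benjamini-Hochberg method and called under 0.05. SE was taken as the size of the log2 fold change divided by √F. The log2 CPM used a prior count of 2. Swings and the interaction were contrasts of the same fit. Alternatives used DESeq2 1.42.0, limma-voom (limma 3.58.1), other scaling, filters, a replicate term, fewer libraries and summed members; the sums of CA1 with CA3 and of CA5 with CA6 were chosen after seeing the data. The fit was tested on simulated data with a shift in CAM shared by all times. Only the average over the 4 times was checked, so tests at single times, of courses and of the interaction were not covered. Every measured family member is named, and other genes come from fixed lists of carbonic anhydrases and their partners, or by their likeness to a member. The members and lists were chosen with earlier results of these data known.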

Additional observations from a re-analysis of the deposited data

Results flagged for a closer look

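For all 4 members the difference between CAM and reC3 differed between times (interaction, edgeR quasi-likelihood test with Benjamini-Hochberg adjustment over all genes), with adjusted p = 0.00246 for CA1, 0.00116 for CA3, 0.000346 for CA5 and 0.0054 for CA6. The change from ED to EN differed between modes for the same 4, with adjusted p = 0.000682 for CA1, 0.000427 for CA3, 0.000475 for CA5 and 0.00934 for CA6. It was smaller in CAM than in reC3 for CA1 and CA3 and larger for CA5 and CA6. The change from MD to MN differed between modes for CA5 (adjusted p = 0.0136). Of all genes tested, 46.8%, 36.2% and 22.3% passed these tests. The interaction compares times of both library sets, whereas the tests of a change each stay within a set.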

How the results depend on the processing

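Of the member values, the change of CA1 from ED to EN in CAM, near 0, turned positive under RLE scaling and DESeq2 (0.0011 each), limma-voom (0.081), the replicate block (0.11) and the sum of CA1 and CA3 (0.0076), and ran from -0.39 to 0.22 with 1 library left out. Under library totals alone, CA5 and CA6 from MD to MN in reC3 were at 0.17 and 0.27, CA3 from ED to EN in CAM at -0.11 and CA5 from ED to EN in reC3 at -0.092. That scaling left 1 member, CA6, past the threshold in the average and 2, CA1 and CA3, from ED to EN in reC3. With the replicate block, and in a fit of the 6 libraries compared, 4 members passed from MD to MN in CAM, and the block changed no other call. Same-numbered libraries of different groups deviated together beyond r = 0.1 in 16 of 84 pairs, and differently numbered ones in 23 of 168. The mean r was 0.023 and -0.012. Of the libraries, 10 of 24 correlated best with their own number, and the numbers were not taken as pairs. With MD and MN libraries alone, CA1 and CA3 averaged -0.072 and -0.11, the interaction passed for 2 members and 3785 genes, and the difference in course for 2 members. With ED and EN libraries alone, no member passed in the average (edgeR) and 4064 genes passed the interaction. These fits hold fewer samples. Without MD, 1 member passed in the average. Summing all measured members gave values set mostly by CA1. In place of CA5 and CA6 they read -0.58 at MD, 2.63 at ED, 0.43 at MN, -1.41 at EN, 1.01 for the MD to MN difference and -4.05 for the ED to EN difference, and 0.030 for CA1 from ED to EN in CAM. With CA5 and CA6 summed, CA6 at MN was at -0.073. With 1 library left out, the number of members past the threshold ran from 1 to 4 at EN (1 without CAM EN replicate 3 or reC3 EN replicate 1), 2 to 4 from MD to MN in CAM and 1 to 2 for the difference in that course. The planned sum of CA1 and CA2 was not run, since CA2 was not analysed here. For other changes the cause was not tested. CA6 had as few as 20 counts in a library, and the part of depth in its results was not tested.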
